A study of Mus musculus with 6 samples.

Results

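Matricellular proteins are secreted into the extracellular matrix, where they act on cells and on matrix assembly more than they bear load. The genes described here are those of the thrombospondins Thbs1, Thbs2, Thbs3 and Thbs4, of periostin (Postn) and its relative Tgfbi, of Sparc and its relative Sparcl1, of osteopontin (Spp1), and of fibronectin (Fn1), the adhesive glycoprotein that these proteins meet in the matrix. Members were chosen by name, as probe sets to which the array annotation gives exactly 1 gene symbol from this list of 10. The rule found 9 of the 10, out of 19938 genes measured, with 1 probe set each. Spp1 had no matching row and was not analysed here.

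RNA came from immortalized neural precursor-like cells, which were derived from the brains of C57BL/6J mouse embryos at embryonic day 13.5 and grown after immortalization in RPMI medium containing little serum. The cells of the first group were Lgi1 wild type, and those of the second were Lgi1 knock-out, carrying a homozygous deletion of this gene for a secreted neuronal protein. For either genotype 3 samples, which their titles call biological replicates, were hybridized, each to its own Affymetrix Mouse Gene 1.0 ST array. The labels give neither the number of embryos nor the number of immortalized lines behind a genotype, so every p-value here reflects only how much these samples vary, and that variation may be technical. The labels name no treatment or time course, and the single comparison sets the genotypes against each other to ask which transcripts differ.

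All values are log2 values of a probe set as deposited. Array medians lay between 6.36 and 6.41, and arrays correlated over the 35556 probe sets at 0.993 to 0.995 (Pearson) within and 0.968 to 0.971 between genotypes. Background was read from 1194 receptor genes of the nose (olfactory and vomeronasal), whose median was 4.89 and whose 95th percentile, called the background percentile here, was 5.68. Lgi1 lay under this percentile on every array (4.61, 4.75 and 4.94 for wild type, 4.53, 4.57 and 4.54 for knock-out), so it gave no check of the genotype labels. Sox2, which maintains neural progenitors, had a mean of 11.26 in wild-type cells and of 5.35, under the background percentile, in knock-out cells. Of 11 markers of neural progenitors and radial glia 6 fell and none rose (54.5% changed, 31.6% of all genes). Of the 11, 1 had a wild-type mean and 4 a knock-out mean under 5.68. The genotypes also differed in Xist, the RNA of the inactive X chromosome (4.64 against 12.44), and in the Y-linked genes Eif2s3y, Uty and Kdm5d, which all fell (Eif2s3y from 10.19 to 4.67). Genotype and these sex-linked differences cannot be told apart in any comparison that follows.

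Thrombospondins are calcium-binding glycoproteins that regulate attachment, angiogenesis and, in the brain, the formation of synapses by astrocytes. Thbs1 and Thbs2 form trimers and carry type 1 repeats, while Thbs3 and Thbs4 form pentamers without them. Periostin and Tgfbi share fasciclin domains and bind collagens and integrins. Sparc binds collagen and calcium, Sparcl1 (hevin) is its astrocyte relative, and fibronectin is assembled by cells into fibrils through integrins. Several of these genes, Tgfbi by its name, are known targets of TGF-β.

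In knock-out cells 8 of the 9 measured genes were higher and none was lower, where rises and falls are changes with an adjusted p under 0.05 (limma with Benjamini-Hochberg adjustment over all genes). Over all 19938 genes 31.6% changed, 14.0% upward and 17.6% downward. The rises differed widely in size. Thbs2, Postn and Tgfbi rose by more than 4 on the log2 scale (16-fold), as did 0.326% of all genes. Together with Sparcl1, which rose by 1.02, they were 4 genes that rose by 1 or more, as did 3.05% of all genes. Fn1, Thbs3, Sparc and Thbs4 rose by less than 1. The median log2 fold change of the 9 genes was 0.66, beside -0.012 for all genes. The 3 arrays of a genotype did not overlap those of the other for 8 of the 9 genes, and for 42.3% of all genes.

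**Figure D1:**
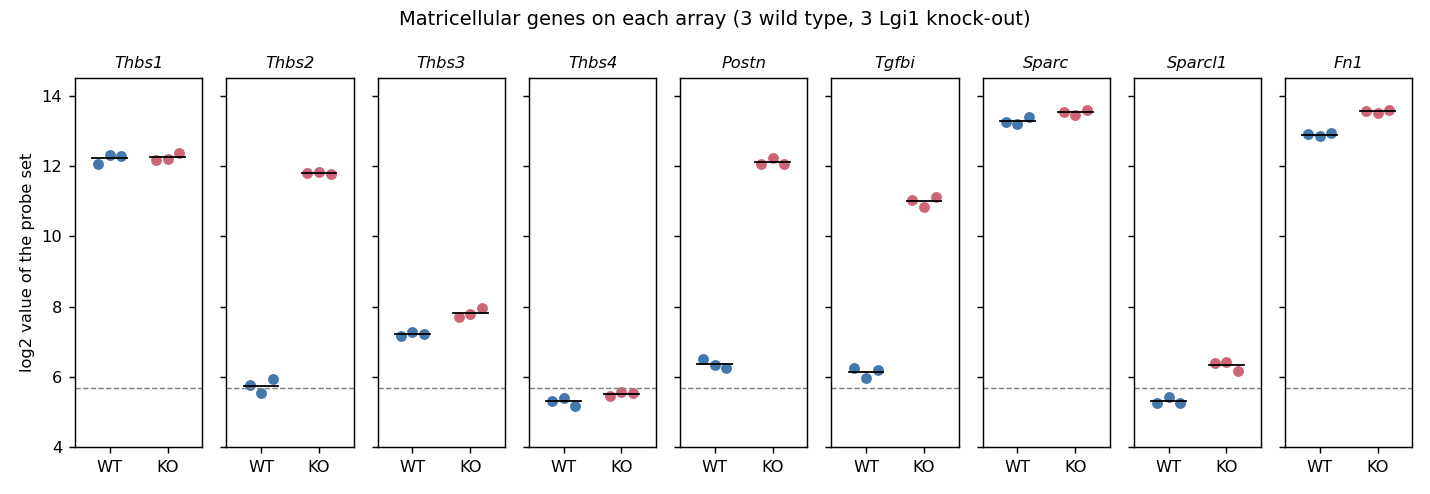
Log2 value (vertical axis) of the probe set of each of the 9 measured genes on each array, with 3 wild-type (WT, blue) and 3 knock-out (KO, red) points and a black line at the mean of each genotype. The dashed line is the background percentile of 5.68, and levels of different genes are not comparable. Thbs2, Postn and Tgfbi separate by more than 4, and Thbs1 overlaps.

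Thbs2, which inhibits angiogenesis and takes part in collagen fibril assembly, had the largest change of the 9. Its probe set (10447951) gave wild-type values of 5.76, 5.52 and 5.93 and knock-out values of 11.80, 11.84 and 11.79. Wild-type values lay around the background percentile, 2 of 3 above it, while every knock-out value was far above it. The means were 5.74 ± 0.204 and 11.81 ± 0.03 (SD, n = 3 each), a log2 fold change of 6.07 (SE 0.09, limma adjusted p = 2.99e-11). On the linear scale this is 67.3-fold (95% interval 58.2 to 77.9), and it ranked 11 among all genes from the highest rise down. The wild-type level near background limits how well that fold is known.

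Thbs1, the closest relative of Thbs2 and a known activator of latent TGF-β, stood high in both genotypes. Its values (probe set 10474700) were 12.06, 12.31 and 12.30 in wild-type and 12.17, 12.20 and 12.38 in knock-out cells. The arrays of the genotypes overlapped, with means of 12.22 ± 0.139 and 12.25 ± 0.111 (SD, n = 3 each). The log2 fold change was 0.03 (SE 0.09, limma adjusted p = 0.861) with a 95% interval of -0.16 to 0.22, or 0.893-fold to 1.17-fold. Its sign was not settled: the value was -0.0043 with array medians subtracted, -0.05 without wild-type replicate 1 and -0.03 without knock-out replicate 3. The change of Thbs2 exceeded that of Thbs1 by 6.04 (SE 0.17) on the log2 scale, taken from the difference of the 2 genes on each array. An exact two-sided permutation test over the 6 arrays gave p = 0.1, the smallest that 3 against 3 arrays allow, for this pair and for each of the other 3 pairs of relatives (adjusted p = 0.1 over the 4 pairs). With arrays of the same replicate number paired, an exact sign-flip test gave p = 0.25 for each of the 4, the smallest that 3 pairs of arrays allow. No difference between relatives could therefore pass, whatever its size.

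Among the pentameric thrombospondins, Thbs3, which is known from the growing skeleton, rose from 7.16, 7.27 and 7.21 to 7.71, 7.79 and 7.96 (probe set 10493449). All knock-out arrays lay above all wild-type arrays, with a smallest gap of 0.45. The means of 7.21 ± 0.0512 and 7.82 ± 0.13 (SD, n = 3 each) gave a log2 fold change of 0.61 (SE 0.08, limma adjusted p = 1.39e-04), or 1.53-fold. Thbs4, found in tendon, muscle and injured brain, had 5.31, 5.40 and 5.18 on wild-type and 5.46, 5.55 and 5.55 on knock-out arrays (probe set 10411082). None of these 6 values reached the background percentile, although the genotypes did not overlap. Its log2 fold change of 0.22 (SE 0.07) passed by a narrow margin (limma adjusted p = 0.0358). The call was lost with array medians subtracted (0.19, limma adjusted p = 0.0802) and without wild-type replicate 1 (0.23, 0.0695), wild-type replicate 3 (0.17, 0.119), knock-out replicate 2 (0.21, 0.107) or knock-out replicate 3 (0.21, 0.101), each given as the log2 fold change and its limma adjusted p. Relative to Thbs3, Thbs4 changed by -0.39 (SE 0.08).

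Postn, whose protein binds collagen and is made by fibroblasts, osteoblasts and meningeal cells, rose almost as far as Thbs2. Its values (probe set 10492021) were 6.51, 6.33 and 6.24 in wild-type and 12.07, 12.25 and 12.06 in knock-out cells. Every wild-type value was above the background percentile, and the lowest knock-out value exceeded the highest wild-type value by 5.54. The means of 6.36 ± 0.139 and 12.12 ± 0.106 (SD, n = 3 each) differed by 5.77 (SE 0.09, limma adjusted p = 1.95e-11), which is 54.4-fold (95% interval 47.7 to 62.1) and ranked 16 among all genes.

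Tgfbi, a collagen-binding protein induced by TGF-β, moved in the same direction. It gave 6.24, 5.96 and 6.18 on wild-type and 11.04, 10.85 and 11.13 on knock-out arrays (probe set 10405587). The genotypes were apart by at least 4.60. From 6.13 ± 0.147 to 11.01 ± 0.147 (SD, n = 3 each) the log2 fold change was 4.88 (SE 0.09, limma adjusted p = 1.22e-10), or 29.4-fold (95% interval 25.4 to 34.1), rank 35 of all genes. The measured rise of Postn was larger than that of Tgfbi by 0.89 (SE 0.17) on the log2 scale. This difference could not pass, as its p was the smallest possible (exact permutation p = 0.1, or 0.25 with arrays of the same number paired).

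**Figure D2:**
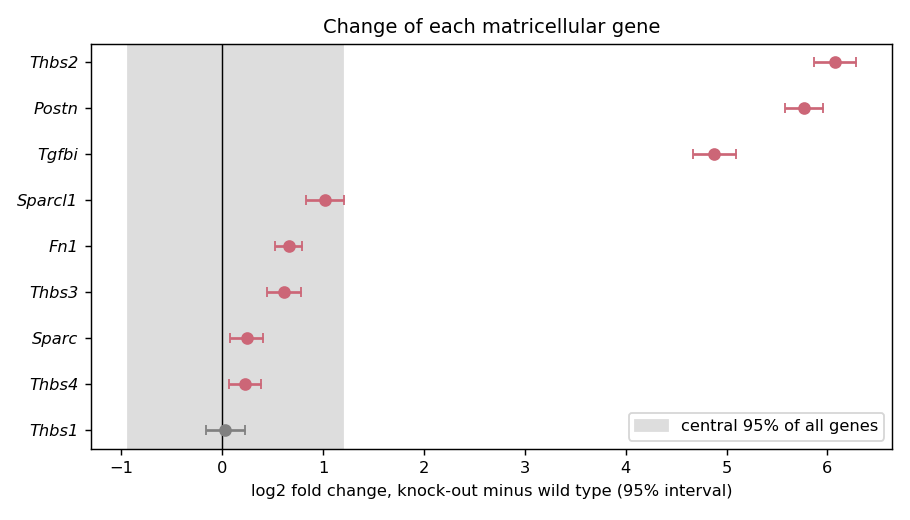
Log2 fold change (horizontal axis, knock-out minus wild type) of each measured gene with its 95% interval from limma, ordered by size. Red points passed at an adjusted p under 0.05 and grey did not, and the grey band holds the central 95% of all 19938 genes (-0.94 to 1.19). Thbs2, Postn and Tgfbi lie outside the band and the other 6 inside it.

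Sparc, an abundant collagen-binding protein of mesenchymal and glial cells, was high everywhere and shifted little. Its values (probe set 10386058) were 13.27, 13.19 and 13.40 in wild-type and 13.54, 13.45 and 13.60 in knock-out cells. The genotypes were separated by a gap of only 0.055, smaller than the SD within either (0.105 and 0.0727). The log2 fold change was 0.24 (SE 0.07, limma adjusted p = 0.0273), or 1.18-fold. The call was lost when 1 array was left out in 4 of 6 cases: without wild-type replicate 1 (0.24, limma adjusted p = 0.0733), wild-type replicate 2 (0.20, 0.0999), knock-out replicate 1 (0.24, 0.0727) or knock-out replicate 3 (0.21, 0.0975). The highest value of any gene on any array was 14.16.

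Sparcl1, which astrocytes secrete to promote synapses, moved from below the background percentile to above it. It gave 5.25, 5.42 and 5.24 on wild-type and 6.39, 6.41 and 6.17 on knock-out arrays (probe set 10531931). No wild-type array and every knock-out array exceeded 5.68. The log2 fold change of 1.02 (SE 0.08, limma adjusted p = 6.32e-06) is 2.03-fold. Relative to Sparc, Sparcl1 changed by 0.78 (SE 0.16).

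Fn1, whose fibrils are the scaffold on which thrombospondins, periostin and collagens are laid down, rose by a small and even amount. The values (probe set 10355403) were 12.91, 12.86 and 12.93 in wild-type and 13.58, 13.51 and 13.59 in knock-out cells. The groups were 0.57 apart at their closest, with SDs of only 0.0354 and 0.0471. The means of 12.90 and 13.56 gave a log2 fold change of 0.66 (SE 0.06, limma adjusted p = 1.30e-05), or 1.58-fold (95% interval 1.44 to 1.73).

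RefSeq promoter windows (GRCm38.p6) matched 6 of the 9 genes, in 7 windows. Shown are the 250 bases before the annotated start for the 3 genes that rose most, and for Thbs3 and Thbs4, thrombospondins that rose little. Postn has a pair of annotated starts, and the window of the upstream start is given first. Each runs 5′ to 3′ on the gene's strand, and capitals mark matches on either strand to any of 6 motifs, which could overlap. They were the TATA box in the form TATAAA and the GC box, which binds Sp1, in the form GGGCGG. The third was CCAAT, the element of NF-Y. The fourth was the AP-1 element TGANTCA and the fifth the short SMAD element CAGAC, to which TGF-β effectors bind. The last was the E-box of Snail-type repressors, CACCTG.
Thbs2, chr17:14694263-14694512, minus strand: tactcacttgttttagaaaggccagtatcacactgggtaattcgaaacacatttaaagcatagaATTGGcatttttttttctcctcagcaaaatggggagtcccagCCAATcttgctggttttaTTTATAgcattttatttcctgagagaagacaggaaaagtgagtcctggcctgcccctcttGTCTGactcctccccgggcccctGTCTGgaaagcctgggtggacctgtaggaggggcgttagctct
Postn, chr3:54359017-54359266, plus strand: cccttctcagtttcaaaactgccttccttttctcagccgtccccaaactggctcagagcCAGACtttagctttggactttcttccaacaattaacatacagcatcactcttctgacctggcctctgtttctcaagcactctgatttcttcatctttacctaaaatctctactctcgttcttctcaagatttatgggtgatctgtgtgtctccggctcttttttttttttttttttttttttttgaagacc
Postn, chr3:54360857-54361106, plus strand: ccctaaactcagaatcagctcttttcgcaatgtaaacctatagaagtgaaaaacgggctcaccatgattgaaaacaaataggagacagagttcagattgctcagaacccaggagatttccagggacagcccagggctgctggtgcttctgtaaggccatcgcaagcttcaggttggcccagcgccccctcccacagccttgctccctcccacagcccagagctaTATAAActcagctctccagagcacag
Tgfbi, chr13:56609336-56609585, plus strand: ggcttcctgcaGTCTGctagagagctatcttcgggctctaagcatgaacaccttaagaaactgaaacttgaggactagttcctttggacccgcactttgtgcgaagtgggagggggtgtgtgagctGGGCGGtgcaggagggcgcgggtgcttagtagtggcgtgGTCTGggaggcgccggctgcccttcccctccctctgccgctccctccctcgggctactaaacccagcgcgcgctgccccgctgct
Thbs3, chr3:89214930-89215179, plus strand: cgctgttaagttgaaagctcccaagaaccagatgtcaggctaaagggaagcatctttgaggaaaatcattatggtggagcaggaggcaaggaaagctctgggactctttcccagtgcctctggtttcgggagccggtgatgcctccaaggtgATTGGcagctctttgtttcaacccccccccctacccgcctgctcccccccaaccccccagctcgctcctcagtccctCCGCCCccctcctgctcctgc
Thbs4, chr13:92794819-92795068, minus strand: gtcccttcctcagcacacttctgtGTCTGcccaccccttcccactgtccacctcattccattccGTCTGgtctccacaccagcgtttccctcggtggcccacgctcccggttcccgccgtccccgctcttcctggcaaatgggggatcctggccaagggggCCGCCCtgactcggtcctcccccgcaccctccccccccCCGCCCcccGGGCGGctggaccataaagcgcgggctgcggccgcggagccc

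CAGAC was the motif matched in all 3 genes with the largest rises, at 2 places in Thbs2, 2 in Tgfbi and 1 in the upstream Postn window (bases -191 to -187, where -1 is the base before the start), and not in the downstream Postn window. It was also matched in genes that rose little, at 2 places in Thbs4 and at 1 in the Sparc window, which is not shown (bases -35 to -31). CAGAC is common, occurring in 42.2% of all 32851 windows of the same length. TATAAA was found in the downstream Postn window at bases -26 to -21 and, on the opposite strand, in Thbs2 at -126 to -121. It occurred in 12.4% of windows. GGGCGG was matched at 3 places in Thbs4 and 1 each in Thbs3 and Tgfbi (32.7% of windows), and CCAAT at 2 in Thbs2 and 1 in Thbs3 (33.8%). TGANTCA (6.75% of windows) and CACCTG (17.2%) had no match in the 6 windows shown. The Thbs2 window held 3 CpG dinucleotides, the Postn windows 3 and 4, and those of Tgfbi and Thbs4 held 15 and 19, where the median window has 6. The 3 genes that rose most thus lay on both sides of that median.

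The nearest measured gene on either side of each gene on its chromosome was examined. None of the 6 that flank Thbs2, Postn and Tgfbi passed, and their log2 fold changes were -0.058 to 0.13. Trpc4, a cation channel gene beside Postn, lay at 4.70 and 4.64, and Supt20 on its other side at 10.86 and 10.85 (means of wild type and knock-out). Smad5, a BMP signal transducer next to Tgfbi, was 10.15 and 10.21. Of all 18 genes flanking the 9, 2 rose, 1 fell and 15 did not pass, with a median of 0.011. Over all genes 31.6% changed, with a median of -0.012. The 3 flanking genes that changed were Mtx3 beside Thbs4 (0.34, limma adjusted p = 0.0162), Atic beside Fn1 (0.38, limma adjusted p = 0.00273) and Fat2 beside Sparc (-0.40, limma adjusted p = 0.00188). Mtx1, a mitochondrial import gene that lies next to Thbs3, had a log2 fold change of 0.025 (limma adjusted p = 0.848).

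**Figure D3:**
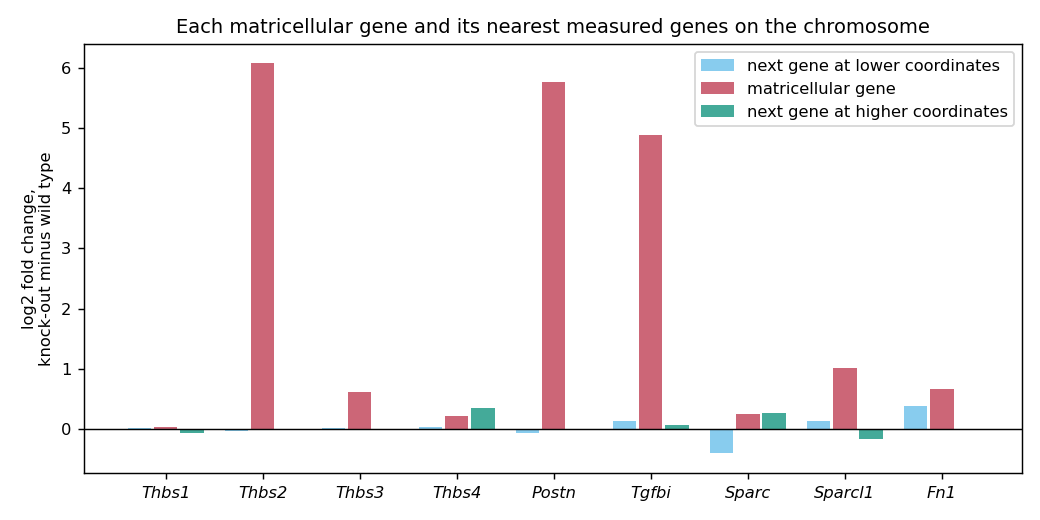
Log2 fold change (vertical axis, knock-out minus wild type) of each measured matricellular gene (red bar) and of the next measured gene at lower (light blue) and higher (green) coordinates on its chromosome. The bars beside Thbs2, Postn and Tgfbi lie between -0.058 and 0.13.

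By likeness of profile, measured as the Euclidean distance over the 6 arrays after each gene's wild-type mean was subtracted, the nearest genes to Thbs2 were Abi3bp (distance 0.427) and Adamts5 (0.438), an aggrecan-degrading protease. Nearest to Postn were Ddr2, a collagen receptor kinase (0.308), and Cpxm2 (0.315). Tgfbi was most like Tnmd, or tenomodulin of tendons (0.351), and Rspo3, an amplifier of Wnt signals (0.447). For Sparcl1 the nearest were 2610005L07Rik (0.105) and Adgrg2 (0.143). With 2 groups of arrays the distance reflects mainly the size of the change, and these genes had log2 fold changes of 6.19, 6.16, 5.88, 5.92, 4.91, 4.99, 1.01 and 1.02 in the order named.

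A list of 23 other matricellular genes was measured as well (tenascins, CCN proteins, Smoc and Spock genes, Fstl1, Comp, Ecm1, Cilp and the bone matrix relatives of Spp1). Of these 8 rose, 1 fell and 14 did not pass, so that 39.1% changed against 31.6% of all genes, with a median of 0.012 beside -0.012 for all genes. In 14 of them the wild-type mean was under the background percentile. Ccn3, a CCN protein with growth-restraining roles, stood at 8.22 ± 0.133 without and 12.63 ± 0.119 with the deletion (SD, n = 3 each; SE of the change 0.09, limma adjusted p = 1.28e-10). Smoc2, a Sparc-family calcium-binding protein, rose by 2.20 from 5.61, and Ccn5 by 1.03 from 7.94. Ecm1 was the gene that fell, from 11.23 to 10.55 (log2 -0.67, limma adjusted p = 8.81e-05).

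Receptors of these proteins moved both ways. Of 20 measured, 4 rose, 6 fell and 10 did not pass (50% changed, 31.6% of all genes), with a median of 0.00097. Among their 12 integrin chains 4 rose and 3 fell. Itga3, a laminin receptor chain that also binds thrombospondin, fell by 2.85 (SE 0.08), with means of 10.88 ± 0.0859 and 8.04 ± 0.137 (SD, n = 3 each). Itgb8, a chain of a TGF-β-activating integrin, fell by 1.46. Cd44, the hyaluronan receptor that also binds osteopontin, fell by 0.96. Itga8, a chain that binds fibronectin and osteopontin, rose by 2.48 (SE 0.10), with means of 4.90 ± 0.118, under background, and 7.37 ± 0.184 (SD, n = 3 each).

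Partners of these proteins in the matrix and in its processing included large rises. Of 21 measured, 13 rose, 3 fell and 5 did not pass (76.2% changed, 31.6% of all genes), with a median of 0.55 beside -0.012 for all genes. The gelatinase gene Mmp2 rose by 6.13 (means 6.18 and 12.32) and the type I collagen gene Col1a2 by 5.30 (means 6.85 and 12.15). Adamts1, a protease that cleaves thrombospondins, rose by 4.72 and Bgn, a matrix proteoglycan, by 2.79. The limma adjusted p was at most 4.37e-09 for all 4. Fbn1 was not analysed here.

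The list of TGF-β ligands, receptors and response genes gave 6 rises and 3 falls among 16 measured, with 7 not passing. Thus 56.2% changed, against 31.6% of all genes, with a median of 0.12 beside -0.012 for all genes. This concerns RNA and not the activity of the pathway. The ligand genes Tgfb3 and Tgfb2 rose by 2.31 and 1.25, to 12.31 and 11.21 in knock-out cells, and Smad7, a feedback inhibitor, by 0.86. Ltbp1, which holds latent TGF-β in the matrix, fell by 1.53 from 11.49 to 9.96.

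**Figure D4:**
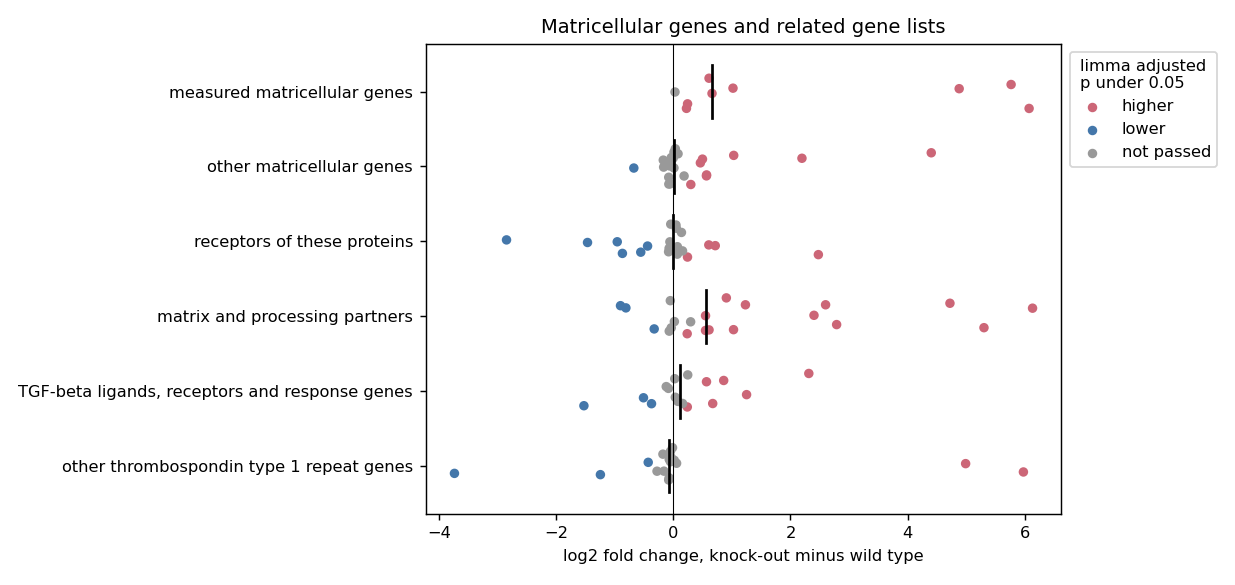
Log2 fold change (horizontal axis, knock-out minus wild type) of every measured gene of the matricellular set and of 5 related lists, 1 point a gene, with a black line at the median of each row. Red genes rose, blue fell and grey did not pass at a limma adjusted p under 0.05. The medians are 0.66 for the 9 genes and between -0.069 and 0.55 for the other lists.

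Several of these genes are made by fibroblasts and meningeal cells, whose markers moved with them. Of 14 such markers, 6 of which are also on the partner list, 13 rose and none fell (median 2.51). Thus 92.9% changed, against 31.6% of all genes. Their summed level, as log2 of the summed linear values, was 12.81 to 13.06 on wild-type and 15.00 to 15.07 on knock-out arrays. In wild-type cells 3 of the 14 had a mean under the background percentile and in knock-out cells none. In bulk RNA a change in the share of such cells cannot be told apart from a change in RNA per cell, and the part of either in the results was not tested. Pericyte and smooth muscle markers gave 4 rises and 1 fall of 8 (62.5% changed, summed level 13.64 to 13.87 and 14.25 to 14.41). Endothelial markers gave 2 rises and 1 fall of 8 (37.5% changed), with all 8 wild-type and 6 knock-out means under 5.68. Of 7 osteoblast markers listed 5 were measured, as Runx2 and Bglap had no matching row. Of these 5, 1 rose and none fell (20% changed), and 4 knock-out means were under 5.68, the exception being Alpl. The remaining lists all changed in a smaller share than the 31.6% of all genes. They were astrocyte markers (1 rose and 1 fell of 7, 28.6% changed) and neuron markers (1 and 2 of 10, 30%). Oligodendrocyte lineage markers (1 and 1 of 7, 28.6%) and microglia and leukocyte markers (1 and 0 of 8, 12.5%) made up the rest.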

How the data were processed

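The authors deposited 1 log2 value per probe set and array, a scale judged from the range of values. Partek is named without a version in the submitters' processing notes. How background was corrected and probes were normalized and summarized before deposit is not stated in the labels or files used. No further normalization was applied. Of 35556 probe sets, 21789 had 1 gene symbol in the platform annotation, 1621 several and 12146 none. For 999 genes with up to 77 probe sets the one with the highest mean was kept.

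Genotypes, taken from the titles, were compared over 19938 genes with limma 3.58.1 in R 4.3.3 (lmFit, eBayes, 4 residual degrees of freedom before moderation) and Benjamini-Hochberg adjustment. Intervals are 95% from the moderated fit. The number of arrays limits the precision. Related genes were compared by the exact permutation test. Named genes are the 9 measured members, the 4 largest changes of each related list, flanking genes and nearest profiles. Lgi1, Sox2 and the sex-linked genes were added, and the cell type marker lists are given mainly as counts. Some flanking genes and Alpl were named after their values were seen. Fbn1, Runx2 and Bglap are named because no row matched them. The members, lists and tests were chosen with earlier results of these data known.

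After each genotype's mean was subtracted, arrays sharing a replicate number in the titles correlated at 0.187 to 0.288 over genes (3 pairs), and other arrays at -0.185 to -0.0047, so the numbers were taken to pair the samples. Since deviations within a genotype cancel, the negative correlations follow in part from the positive ones. The reported fit has no block, because no stated method names a pairing. Alternatives were the replicate block, quantile normalization, array medians subtracted, filters at the 25th percentile and the median, array weights, the mean of probe sets, eBayes with trend and robust estimation, and each array left out. Simulated data for this comparison held 19938 genes, with 50 changed at each size and noise drawn independently. Of genes changed by 0.5, 80% were recovered, and of those changed by 1, 2 or 4 (log2), 100%. Besides these, 20 unchanged genes were called. Far fewer genes were changed there than the 6296 called in the data, and replicates shared no effect. Recovery in the data may therefore differ.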

Additional observations from a re-analysis of the deposited data

How the results depend on the processing

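Thbs2, Postn, Tgfbi, Sparcl1, Fn1 and Thbs3 passed as higher under every alternative that gave them a value. Sparcl1 and Thbs4 have none among genes above the median level. Sparc passed under 10 of 14 and Thbs4 under 8 of 13, and 6 or 7 of the 9 genes were called with 1 array left out. Leaving out 1 array moved Thbs1 between -0.051 and 0.071, and subtracting array medians gave -0.0043. With the replicate block 7000 genes were called, against 6296, 6279 of them shared, and 8 of the 9 genes. The block changed no call among the 9. Without 1 array 5485 to 5803 genes were called. Among genes above the median level 3 thrombospondin type 1 repeat genes were called, against 5 of the whole list, where fewer genes were tested. All 4 differences between relatives kept their direction under every alternative run. None passed in any of them, and none could, since the exact tests cannot go below p = 0.1, or 0.25 with paired arrays. Values near the background percentile limit the folds of Thbs2, Thbs4, Sparcl1 and Itga8 and of other genes whose mean in a genotype lies under it. The wild-type means of Tgfbi (6.13) and Postn (6.36) lie above it but not far from it, which may limit their folds too.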

Other observations

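Other genes with thrombospondin type 1 repeats, the module that Thbs1 and Thbs2 carry and Thbs3 and Thbs4 lack, changed at about the rate of all genes. Of 17 measured, 2 rose, 3 fell and 12 did not pass (limma, Benjamini-Hochberg over all genes), so that 29.4% changed against 31.6% of all genes, with a median log2 fold change of -0.069, and 11 had a wild-type mean under the background percentile. The rises were those of the R-spondins Rspo2, with means of 5.18 ± 0.102 and 11.16 ± 0.0754 in wild-type and knock-out cells (SD, n = 3 each), and Rspo3, with means of 5.88 ± 0.0887 and 10.87 ± 0.128, which amplify Wnt signals. Their measured log2 differences were 5.98 (SE 0.07) and 4.99 (SE 0.08). The wild-type mean of Rspo2 lay under the background percentile of 5.68 and that of Rspo3 just above it, which limits both folds. Rspo1 fell from 6.86 to 5.62 (log2 -1.24, limma adjusted p = 1.23e-04). Spon2, a secreted F-spondin relative, fell from 8.91 ± 0.173 to 5.17 ± 0.214, under the background percentile, which limits the fold (measured log2 difference -3.74, SE 0.12, limma adjusted p = 3.44e-09).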
